A study of Homo sapiens with 4 samples.

Results

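The ERK pathway feedback genes are 10 genes that cells transcribe when the RAS, RAF, MEK and ERK kinase cascade is active. They were chosen by name: the dual-specificity phosphatases DUSP4, DUSP5 and DUSP6, the Sprouty genes SPRY1, SPRY2 and SPRY4, the SPRED genes SPRED1 and SPRED2, and the ETS transcription factors ETV4 and ETV5. All 10 were found, each as 1 row, among the 60671 gene rows of the count table, and all 10 passed the filter on low counts. RNA sequencing was carried out on SK-N-BE(2) cells, an established MYCN-amplified neuroblastoma line of noradrenergic type. Control cells carried the control hairpin named shNC and knockdown cells a hairpin against METTL14, named shMETTL14, with 2 libraries in each group. METTL14 is a subunit of the enzyme that writes N6-methyladenosine (m6A) on mRNA. The study's methods name the pLKO.1 lentiviral vector for knockdown and puromycin for selecting stable lines, without stating the vector of shNC or that the sequenced cells were these lines. The study used more than 1 METTL14 hairpin vector, and the labels do not say which one the sequenced cells carried, so that the effect of 1 hairpin and that of METTL14 loss cannot be told apart.

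Each library held between 18925786 and 19886214 reads in genes. METTL14 itself checked the labels: it had 753 and 754 counts in shNC cells and 303 and 321 in shMETTL14 cells, a log2 fold change of -1.26 (SE 0.0832, edgeR adjusted p 3.6e-11). All 8 noradrenergic neuroblastoma markers examined, among them HAND2, GATA3, TH, DBH and MYCN, were expressed, with a summed level of 4770 to 4820 CPM (counts scaled to the size of the library) in shNC and 4970 to 5020 CPM in shMETTL14 libraries. Individually 6 of these 8 were called lower, and ISL1 and the amplified MYCN, the most abundant of them, higher. Beside these and the marker calls below, 25.3% of all 16309 genes tested were called lower and 27.2% higher. The 8 mesenchymal or fibroblast markers summed to 673 to 689 CPM in shNC and 796 to 817 CPM in shMETTL14 libraries, with PRRX1 at 3 counts or fewer in every library. THY1, from 4348 and 4199 to 7112 and 7045 counts, and the weakly expressed COL1A2 were called higher, COL1A1 (-0.48), COL3A1 (-0.78) and TWIST1 (-0.14) lower on the log2 scale, and DCN and LUM were not called. The 5 immune markers summed to 1.87 to 2.61 CPM and the 5 epithelial markers to 4.1 to 7.42 CPM, with KRT5 at 0 throughout. The part of these marker shifts in the results below was not tested. In bulk RNA, fewer cells that express a gene and less of its RNA per cell cannot be told apart.

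ERK signalling is restrained by proteins whose own genes it switches on. DUSP phosphatases remove the activating phosphates from MAP kinases: DUSP6 acts on ERK in the cytoplasm, whereas DUSP4 and DUSP5 act in the nucleus. Sprouty proteins interrupt the signal between receptor tyrosine kinases and RAF, and SPRED proteins bring the RAS inactivator neurofibromin to the membrane. ETV4 and ETV5 are not inhibitors. They are transcription factors that are made when ERK is active and that the repressor CIC holds down when it is not. Levels of these mRNAs are therefore commonly used as a readout of ERK output, and in neuroblastoma the cascade is fed by receptors such as ALK and RET.

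The 3 Sprouty genes had calls in both directions, and their regulatory sequence is given here. Printed are the 250 bases before the furthest upstream RefSeq start (GRCh38.p14), 5′ to 3′ on the strand of the gene. Capitals mark matches, on either strand, to the ETS motif CCGGAA or to the cAMP response element core TGACG, which do not overlap here.
SPRY2, chr13:80341127-80341376, minus strand: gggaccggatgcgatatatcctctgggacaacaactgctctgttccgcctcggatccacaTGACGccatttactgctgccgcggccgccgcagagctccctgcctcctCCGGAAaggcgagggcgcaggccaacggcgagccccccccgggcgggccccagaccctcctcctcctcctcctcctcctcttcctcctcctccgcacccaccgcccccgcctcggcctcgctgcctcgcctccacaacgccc
SPRY4, chr5:142324248-142324497, minus strand: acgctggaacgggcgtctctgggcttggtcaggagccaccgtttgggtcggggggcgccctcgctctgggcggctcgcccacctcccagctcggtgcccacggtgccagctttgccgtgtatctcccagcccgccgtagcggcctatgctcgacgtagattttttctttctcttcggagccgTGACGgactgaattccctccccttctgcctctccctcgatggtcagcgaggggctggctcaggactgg
SPRY1, chr4:123396545-123396794, plus strand: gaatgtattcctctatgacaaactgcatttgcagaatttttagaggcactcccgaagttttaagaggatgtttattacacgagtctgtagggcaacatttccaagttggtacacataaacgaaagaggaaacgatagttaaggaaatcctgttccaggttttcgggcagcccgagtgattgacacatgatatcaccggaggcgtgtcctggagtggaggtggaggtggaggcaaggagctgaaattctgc

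The SPRY2 window held both words, with TGACG starting 190 bases and CCGGAA 142 bases before the start. The SPRY4 window held TGACG 68 bases before its start, and this SPRY1 window held neither. A further SPRY1 window, before the gene's next start, held CCGGAA 67 bases before that start, whereas the other SPRY2 windows held neither word. G and C made up 70.4% of the SPRY2 window, 65.6% of the SPRY4 window and 45.6% of the SPRY1 window. RefSeq windows were found for 6 of the 10 genes (DUSP6, SPRY1, SPRY2, SPRY4, SPRED1 and SPRED2), 10 windows in all because some genes have several starts. Of these 10, 2 held CCGGAA and 2 held TGACG, against 22.1% and 27.5% of 16437 windows of tested genes. The AP-1 word TGANTCA, the CIC word TGAATGNA and the SRF CArG box were in none of the 10 windows, and in 4.28%, 2.04% and 1.05% of all windows. DUSP4, DUSP5, ETV4 and ETV5 had no window.

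The 10 genes did not move as a block after METTL14 knockdown. DUSP4, SPRY2 and ETV4 were each about 2-fold higher in shMETTL14 cells, ETV5 was slightly higher, SPRY1 and SPRY4 were called lower, and DUSP5, DUSP6, SPRED1 and SPRED2 were not called. In counts, 6 of 10 were called at an edgeR adjusted p under 0.05, 4 higher and 2 lower. Over all 16309 genes tested, 52.5% were called, 27.2% higher and 25.3% lower (3550 higher and 4961 lower with upper quartile scaling, beside 4438 and 4123), so that the share called among the 10 was near the background. The median log2 fold change of the 10 was 0.11, and that of all genes tested was 0. A change of at least 2-fold that was also called was found in 3 of the 10, against 8.79% of all genes tested. In 9 of 10 genes the scaled levels of the groups did not overlap, against 75.5% of all genes tested. With 2 libraries on each side, the smallest two-sided p of an exact permutation test is 0.333. The calls therefore depend on the spread that edgeR estimates over many genes. That spread was small: the common coefficient of variation between replicates, beyond counting noise, was 3.45%. The labels do not say that replicates came from separate cultures, and the p-values measure the spread between these libraries only.

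**Figure D1:**
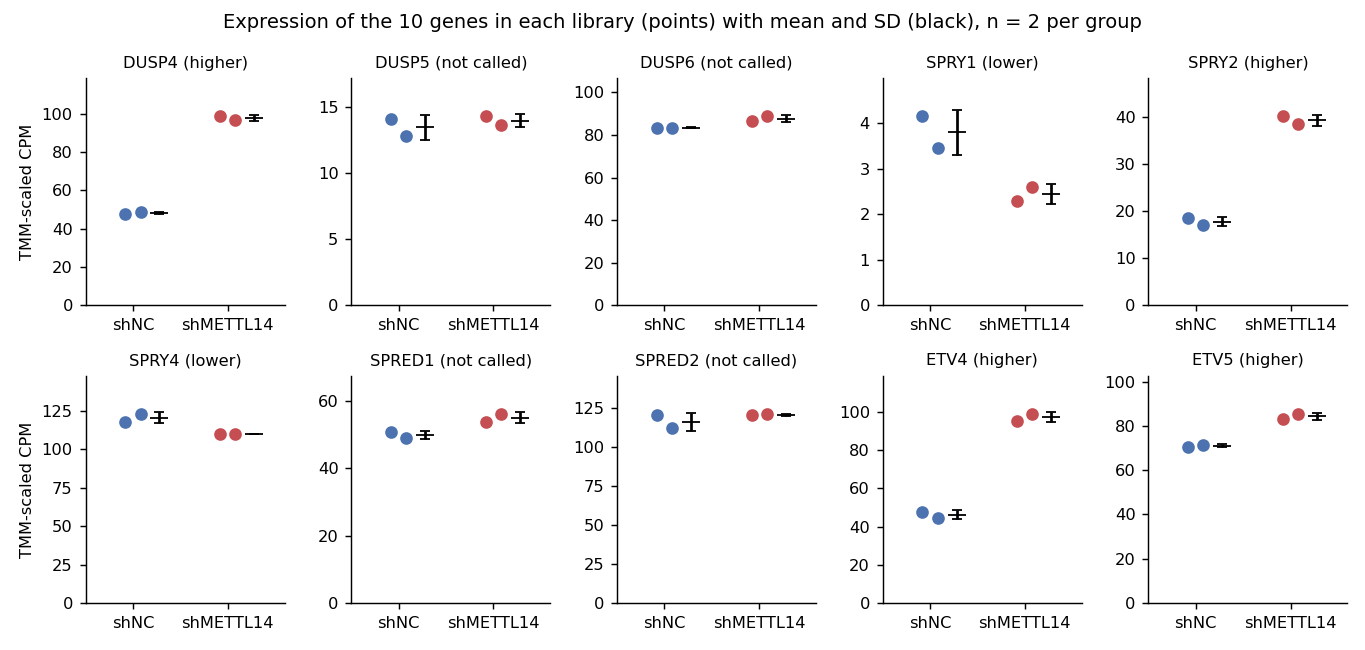
TMM-scaled CPM (vertical axes, from 0 and different for each gene) of the 10 genes in each shNC (blue) and shMETTL14 (red) library, with mean and SD in black (n = 2 per group) and the edgeR call in the title. The shMETTL14 points of DUSP4, SPRY2 and ETV4 sit at about 2 times the shNC points, whereas those of DUSP5 lie among them.

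Among the phosphatases, DUSP4 (ENSG00000120875, chromosome 8, 29333064 to 29350668, minus strand, GENCODE 29 on GRCh38) had 950 and 928 counts in the shNC libraries and 1933 and 1858 in the shMETTL14 libraries. Both knockdown libraries lay far above both controls. Scaled, DUSP4 stood at 48.1 ± 0.565 CPM in shNC and 97.6 ± 1.54 CPM in shMETTL14 cells (SD, n = 2 each), 203% of the control level. On the log2 scale this was a change of 1.02 (SE 0.0517, edgeR adjusted p 4.77e-13), and 3% of the genes tested had a higher one.

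DUSP6 (ENSG00000139318, chromosome 12, 89347232 to 89353271, minus strand) is a phosphatase that acts on ERK in the cytoplasm. It had 1663 and 1599 counts in the shNC libraries and 1694 and 1710 in the shMETTL14 libraries. After scaling these were 83.5 ± 0.0487 CPM and 87.7 ± 1.65 CPM (SD, n = 2 each). The groups did not overlap, yet the difference was small against the modelled spread: the log2 fold change was 0.07 (95% interval from -0.02 to 0.16, edgeR adjusted p 0.224). A change of the size seen in DUSP4 lies outside this interval. The antisense gene AC024909.2 shares 1875 exon bases with DUSP6, 40.5% of its exon length, and itself had 17 to 32 counts. Because the strand setting of the counting is not given in the sources used here, reads in that stretch may have been set aside as ambiguous, and the level of DUSP6 may be too low.

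DUSP5 (ENSG00000138166, chromosome 10, 110497838 to 110511544, plus strand), a nuclear phosphatase for ERK, was the phosphatase with the fewest reads. It had 282 and 246 counts in shNC cells and 280 and 261 in the shMETTL14 libraries, and the groups overlapped. The log2 fold change of 0.04 (95% interval from -0.16 to 0.25, edgeR adjusted p 0.751) was within the spread between replicates, and its sign changed with the scaling. In TMM-scaled CPM, DUSP5 was the only one of the 10 genes whose groups overlapped.

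Among the Sprouty genes, SPRY2 rose and SPRY1 and SPRY4 were called lower, calls that were lost in 3 and 5 of the 11 alternatives. SPRY2 (ENSG00000136158, chromosome 13, 80335976 to 80340951, minus strand) had 366 and 327 counts in the shNC libraries and 785 and 740 in the shMETTL14 libraries, well apart. It went from 17.7 ± 0.909 CPM to 39.3 ± 1.16 CPM (SD, n = 2 each), 222% of control. Its log2 fold change of 1.15 (SE 0.0814, edgeR adjusted p 1.23e-10) was the largest of the 10 genes, and 2.26% of the genes tested had a higher one. The SPRY2 window printed above held both the ETS and the TGACG word, and its other windows held neither. A link between these words and the change was not tested.

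SPRY4 (ENSG00000187678, chromosome 5, 142310427 to 142326455, minus strand) was the most abundant Sprouty gene. It had 2350 and 2358 counts in shNC cells and 2155 and 2118 in shMETTL14 cells, a small difference without overlap. Scaled levels averaged 121 ± 3.7 CPM in shNC and 110 ± 0.00799 CPM in shMETTL14 cells (SD, n = 2 each), 91.3% of control. SPRY4 was thus lower by a log2 fold change of -0.13 (SE 0.0451, edgeR adjusted p 0.0187). This call was lost with DESeq2 (-0.12, adjusted p 0.17), without a filter on low counts (-0.12, adjusted p 0.067), without shNC library 2 (-0.09, adjusted p 0.15), without shMETTL14 library 1 (-0.13, adjusted p 0.098) and without shMETTL14 library 2 (-0.12, adjusted p 0.12). With upper quartile scaling the value was -0.20.

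SPRY1 (ENSG00000164056, chromosome 4, 123396795 to 123403760, plus strand) was the weakest of the 10 genes, with 83 and 66 counts in the shNC libraries and 45 and 50 in the shMETTL14 libraries. Its level in shMETTL14 cells was 64.3% of control, a log2 fold change of -0.64 (SE 0.232, edgeR adjusted p 0.0252). At this depth the estimate is wide, with a 95% interval from -1.09 to -0.18. The call was lost with DESeq2 (-0.63, adjusted p 0.2), without shNC library 1 (-0.50, adjusted p 0.18) and without shMETTL14 library 1 (-0.55, adjusted p 0.11).

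Neither SPRED gene was called. SPRED1 (ENSG00000166068, chromosome 15, 38252326 to 38357249, plus strand) had 1010 and 940 counts in the shNC libraries and 1055 and 1082 in the shMETTL14 libraries. Its groups did not overlap, and its log2 fold change of 0.14 (SE 0.0596, edgeR adjusted p 0.0504) fell just short of the threshold. It was 0.07 (adjusted p 0.31) with upper quartile scaling and, of the 11 alternatives, passed only with a replicate block (0.14, adjusted p 0.041). SPRED2 (ENSG00000198369, chromosome 2, 65310851 to 65432637, minus strand) had 2384 and 2136 counts in the shNC libraries and 2347 and 2320 in the shMETTL14 libraries. These counts overlapped, and the scaled levels were only just apart. Its log2 fold change was 0.06 (95% interval from -0.03 to 0.15, edgeR adjusted p 0.324). NF1, which encodes the neurofibromin that SPRED proteins recruit, was not called either, at -0.06 (SE 0.0862).

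The transcription factors differed from each other in size. ETV4 (ENSG00000175832, chromosome 17, 43527844 to 43579620, minus strand) had 952 and 853 counts in the shNC libraries and 1868 and 1907 in the shMETTL14 libraries. Its mean went from 46.2 ± 2.27 CPM to 97.2 ± 2.6 CPM (SD, n = 2 each), 211% of control, with a log2 fold change of 1.07 (SE 0.0543, edgeR adjusted p 4.78e-13). ETV4 thus moved about as far as DUSP4 and SPRY2. ETV5 (ENSG00000244405, chromosome 3, 186046308 to 186110318, minus strand) had 1407 and 1369 counts against 1633 and 1646, again without overlap but only 119% of control. The log2 difference was 0.25 (SE 0.0495, edgeR adjusted p 2.14e-04), and 26.8% of the genes tested had a higher one. ETV4 shares 68 exon bases with DHX8 on the other strand and ETV5 shares 164 with DGKG on the same strand, 1.9% and 2.8% of their exon lengths.

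**Figure D2:**
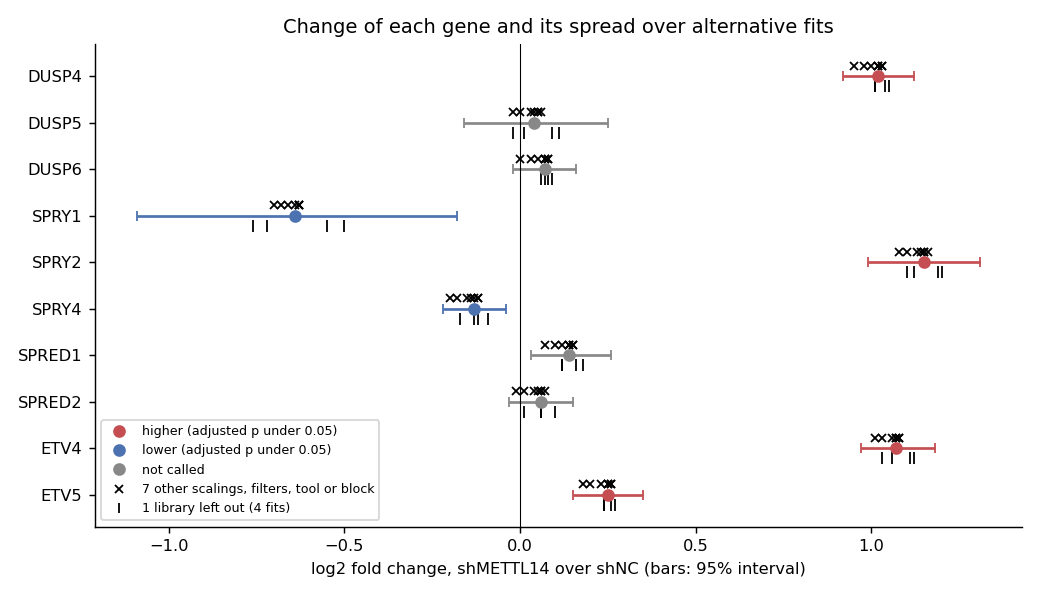
Log2 fold change of shMETTL14 over shNC (horizontal axis) of each gene by edgeR, with bars for the 95% interval, crosses for the 7 other scalings, filters, tool or block, and ticks for the 4 fits that each left out 1 library. Points of DUSP4, SPRY2 and ETV4 stay near 1 in every fit shown, and those of DUSP5 fall on both sides of 0.

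Ratios within a library do not depend on how libraries are scaled, and they set the members of a family against each other directly. The log2 ratio of DUSP4 to DUSP6 counts was -0.81 and -0.78 in the shNC libraries and 0.19 and 0.12 in the shMETTL14 libraries. DUSP4 had fewer counts than DUSP6 in control cells and more in knockdown cells. The log2 ratio of SPRY2 to SPRY4 was -2.68 and -2.85 in the shNC libraries and -1.46 and -1.52 in the shMETTL14 libraries, a mean difference of 1.28. That of ETV4 to ETV5 was -0.56 and -0.68 in shNC and 0.19 and 0.21 in shMETTL14 libraries. This pair too changed order in counts. Counts also depend on the length of a gene. In scaled CPM per kilobase of merged exons, the group means of both pairs kept their order. DUSP4 was below DUSP6 in shNC (6.62 and 18) and in shMETTL14 cells (13.5 and 18.9). ETV4 was above ETV5, at 12.8 and 12.2 in shNC and 27 and 14.6 in shMETTL14 cells. The ratio of SPRED1 to SPRED2 differed little, by 0.08 between group means of -1.21 ± 0.039 and -1.13 ± 0.038 (SD, n = 2 each). In each of these 4 pairs the groups did not overlap, and the smallest p that an exact permutation test could give is 0.333. A share over other pairs was not computed, and the scaled levels of 75.5% of single genes tested did not overlap either. The pairs were chosen after the values had been seen.

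Levels of different genes were compared as scaled CPM per kilobase of merged exons. In shNC cells SPRED2 was highest at 22.4 ± 1.11, followed by SPRY4 at 18.4 ± 0.564 and DUSP6 at 18 ± 0.0105, which did not differ beyond the spread of their libraries. ETV4 at 12.8 ± 0.631 and ETV5 at 12.2 ± 0.11 came next and were close to each other (SD, n = 2 for each value). DUSP4 (6.62), SPRED1 (6.04), SPRY2 (5.83) and DUSP5 (5.16) formed a lower group, in which SPRED1 and SPRY2 overlapped, and SPRY1 was last at 0.96. In shMETTL14 cells ETV4 was first at 27 ± 0.722, above SPRED2 at 23.3 ± 0.0931. DUSP4 reached 13.5 and SPRY2 12.9, still below ETV5 at 14.6. All but SPRY1 were above the median of the genes tested in both groups: SPRED2 exceeded 88.3% of tested genes in shNC cells and DUSP5 55.4%, whereas SPRY1 exceeded 21.8%.

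**Figure D3:**
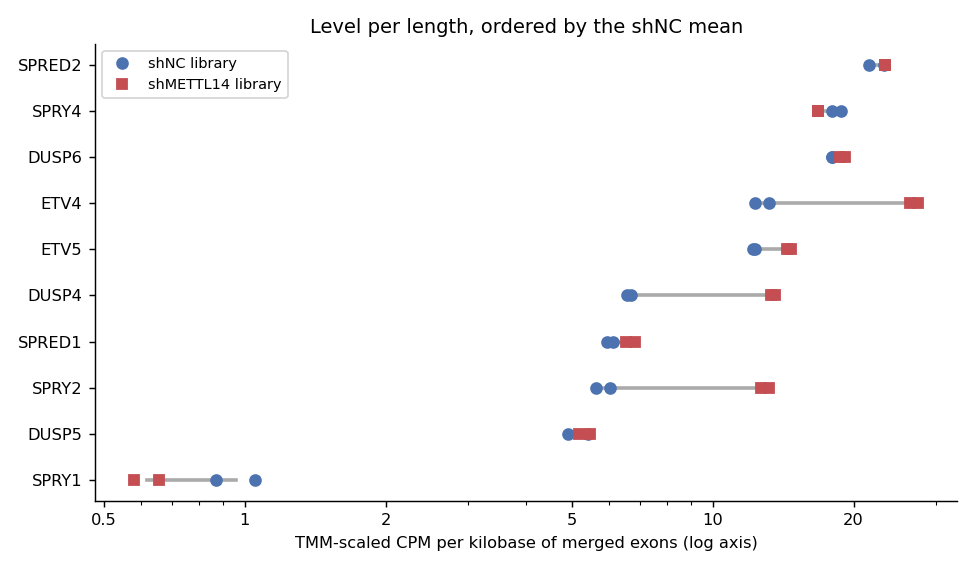
Level per length (horizontal log axis, TMM-scaled CPM per kilobase of merged exons) of the 10 genes in each shNC (blue circles) and shMETTL14 (red squares) library, ordered by the shNC mean, with a grey line joining the group means. ETV4, DUSP4 and SPRY2 have the widest gaps, and ETV4 passes SPRED2 to become the highest.

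Genes of the same families outside the 10 were also mixed. Of 10 relatives, all tested, 5 were called higher and 2 lower, where 27.2% and 25.3% of all genes tested were. DUSP8 and DUSP10, phosphatases that prefer the stress kinases JNK and p38, were higher, with log2 fold changes of 1.98 (SE 0.194, from 69 and 36 to 200 and 211 counts) and 1.11 (SE 0.14). SPRED3 was higher at 0.95 (SE 0.218). DUSP2 was lower at -1.12 (SE 0.373, from 37 and 29 to 17 and 13 counts) and DUSP16 at -0.42 (SE 0.053). ETV1, the third member of the ETV4 and ETV5 subfamily, was called higher at 0.25 (SE 0.043), the same size as ETV5.

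Of 16 other negative regulators of the pathway, all tested, 7 were called higher and 4 lower, beside 27.2% and 25.3% of all genes tested. The largest increases were in PAQR3, which tethers RAF to the Golgi, at 0.63 (SE 0.0528), in the CIC partner ATXN1 at 0.51 (SE 0.0659) and in the ubiquitin ligase CBLB at 0.47 (SE 0.0561). LRIG1, an inhibitor of receptor tyrosine kinases, fell most, from 297 and 240 counts to 90 and 68, with a log2 fold change of -1.75 (SE 0.152). RASA3 and CBL were lower at -0.27 and -0.26. CIC, the repressor of ETV4 and ETV5, was not called at 0.18 (SE 0.0784, edgeR adjusted p 0.0541).

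In the cascade itself, of 23 core genes, 22 were tested and 9 were called higher and 6 lower. For this list and the receptors and ligands below, the shares over all genes tested were 27.2% higher and 25.3% lower. HRAS was higher at 0.70 (SE 0.0944), and the adaptors SHC1 and GRB2 at 0.49 and 0.44. The RAF scaffold KSR1 was lower at -0.48 (SE 0.0953), and the RAS activators SOS2 and SOS1 at -0.37 and -0.28. Of the 14 receptors tested, 8 were called lower and 4 higher. PDGFRA (-2.13), ERBB2 (-1.74) and KIT (-1.72) fell most, and IGF1R (0.44) and EGFR (0.40) were among those that rose on the log2 scale. Only 5 of 14 ligands were expressed highly enough to test, and HBEGF (1.19) and NRG1 (0.78) were called higher.

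Early target genes of ERK were also called in both directions, as were all genes tested (27.2% higher and 25.3% lower). Of 16 listed genes 14 were tested, and 4 were called higher and 7 lower. IER3 (1.63), PHLDA1 (1.44) and FOSL1 (1.39) rose most, and FOS (-0.83), EGR2 (-0.67) and IER2 (-0.49) fell most on the log2 scale. FOS, a very early target, went from 8164 and 7844 counts to 4520 and 4457. PHLDA1 went from 427 and 425 counts to 1193 and 1108. Of 7 transcription factors linked to ERK, ELK1 (0.42), ELK3 (0.39) and SRF (0.27) were called higher, and ETS1 (-0.65), CREB1 (-0.39) and ELK4 (-0.32) lower. Over all 7 lists, 64 of 88 tested genes were called (72.7%, beside 52.5% of all genes tested). Of these, 34 were higher and 30 lower, and the median log2 fold change of the 88 was 0.02. With upper quartile scaling, 31 were called higher and 35 lower. The lists were chosen with earlier results of these data known, and the 2 shares were not matched for expression level. The higher share is therefore no evidence of enrichment.

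**Figure D4:**
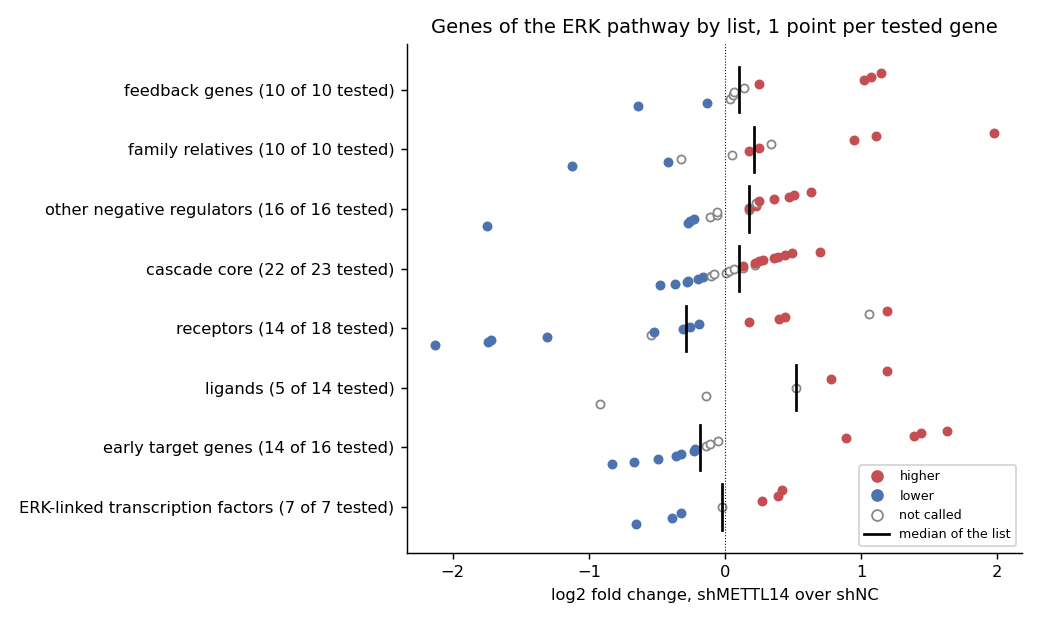
Log2 fold change of shMETTL14 over shNC (horizontal axis) of each tested gene of the 10 feedback genes and of 7 pathway lists, red where called higher, blue where called lower and open where not called, with the median of each list as a black line. Every list with more than 5 tested genes holds calls in both directions, as do all genes tested.

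Genes outside the 10 with the profile most like that of SPRY2, the member with the largest change, were found by the Euclidean distance between centred log2 CPM values over the 4 libraries. Among 11416 genes compared, the closest were ELAVL3, a neuronal RNA-binding protein, at a distance of 0.041, the neurofilament gene NEFM at 0.051 and the exchange factor ARHGEF26 at 0.066. Their log2 fold changes were 1.13, 1.18 and 1.17, beside 1.15 for SPRY2. With 4 libraries in 2 groups, this distance reflects mainly the size of the difference between groups.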

How the data were processed

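RNA sequencing libraries of 2 shNC and 2 shMETTL14 samples of SK-N-BE(2) cells were analysed as labelled. The file deposited by the authors gives raw counts for each Ensembl gene ID, laid out as htseq-count writes them and not normalized. The submitters' processing notes list GRCh38, HISAT2 2.1.0, StringTie 1.3.6, HTSeq 0.13.5 and edgeR. The annotation release and strand setting are not given in the sources used here. Counts of genes that overlap others may therefore be too low or too high. The 5 lines that name no gene held 19.1% to 19.86% of a library's counts and were left out. Remaining depth was 18925786 to 19886214 counts.

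Of 60671 IDs, 60401 were matched to a table of gene names. Genes that passed filterByExpr in edgeR 4.0.16 (R 4.3.3; minimum count 10, minimum total 15) were tested with the quasi-likelihood F-test, TMM scaling and a design with group only. Benjamini-Hochberg adjustment covered all 16309 genes, and genes were called at an adjusted p under 0.05. SE was derived from the F statistic, and 95% intervals assume a normal error. CPM values use TMM-scaled library sizes. Exon lengths, positions and transcripts are from GENCODE 29 and promoter windows from RefSeq (GRCh38.p14). The fit was first tested on simulated data with 200 changed genes. It recovered 44.5% of them at a log2 fold change of 0.3, 63.5% at 0.5 and 82.5% at 1. Small changes can therefore be missed.

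The 10 genes and the pathway lists were chosen with earlier results of these data known. Genes named were the 10, METTL14, up to 3 called genes with the highest and 3 with the lowest change in each list, and the 3 closest to the leading member in profile. NF1, CIC and ETV1 were named in addition, after their values were seen, as were the marker genes. Some genes that the rule or the lists hold are not reported here. Alternatives were 3 other scalings, 2 other filters, DESeq2 1.42.0, a replicate block and the omission of each library in turn.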

Additional observations from a re-analysis of the deposited data

How the results depend on the processing

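DUSP4, SPRY2, ETV4, ETV5 and METTL14 kept their direction and an adjusted p under 0.05 in each of the 11 alternatives, where their log2 fold changes ran from 0.95 to 1.05, 1.08 to 1.2, 1.01 to 1.12, 0.18 to 0.27 and -1.33 to -1.21. SPRY1 and SPRY4 stayed below 0 in all 11 but lost their call in 3 and 5 of them, so that DESeq2 called 4 of the 10 genes, all higher. With DESeq2 the estimate of SPRY1 was -0.63 (SE 0.378), beside -0.64 (SE 0.232) in the main fit. That of SPRY4 was -0.12 (SE 0.0696), beside -0.13 (SE 0.0451). The cause was not tested. DUSP5 reversed from 0.04 to -0.02 with upper quartile scaling, to 0 (slightly below 0 before rounding) with library size alone and to -0.02 without shNC library 2 (-0.02 to 0.11 over the omissions of 1 library), and SPRED2 reversed from 0.06 to -0.01 with upper quartile scaling. None of these had an adjusted p under 0.05. Upper quartile scaling shifted the median over all tested genes by -0.068 on the log2 scale. The number of pathway genes called ran from 56 with DESeq2 to 66. Genes called over the whole table fell from 8561 to 5546 with DESeq2, and the cause was not tested. Without 1 library, where the lone sample of a group is assumed to vary like the other group, 4 to 5 of the 10 genes were called.

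The labels give same-numbered libraries a shared number and name no shared culture or batch. Their deviations from the group means had a Pearson correlation of -0.0018 over the genes. A value over all genes cannot exclude a batch that touches few of them. A fit with a replicate block for this pairing changed 1 call among the 10 genes: SPRED1 was called at 0.14 (adjusted p 0.041), which made 7 of 10, while METTL14 stayed at -1.26. The block called 66 pathway genes.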

Other observations

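Features of the transcripts of the 10 genes were read from GENCODE 29, taking for each gene the coding transcript with the longest coding sequence. The core of the word at which m6A is written, GGAC, occurred between 2.06 times per kilobase in SPRED1 and 6.1 times per kilobase in SPRED2, with a median of 3.83 over 12781 genes tested. Of the 10 genes, 5 lay above that median. Among the genes that were about 2-fold higher, DUSP4 (5.6) and ETV4 (5.76) had more GGAC words per kilobase than the median gene and SPRY2 (3.69) slightly fewer. SPRED2, with the highest density, was not called. These are counts of a word, and m6A itself was not measured in these libraries.

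The word ATTTA is the core of AU-rich elements that mark short-lived mRNAs. Per kilobase of 3′ UTR it was most frequent in SPRED1 (4.3) and SPRY1 (3.31), beside a median of 1.65 over 11893 genes tested. Above that median lay 6 of the 10 genes. ATTTA was absent from the 3′ UTRs of ETV4 and DUSP5, of which ETV4 rose and DUSP5 was not called. Of all genes compared, 67.3% had the word. The 3′ UTR was longer than the median of 1004 bases in 8 of the 10 genes, the exceptions being SPRY2 with 782 and ETV4 with 675 bases, which both rose. DUSP4, which rose as well, had one of 3962 bases. Proteins of the 10 genes run from 315 residues in SPRY2 to 510 in ETV5.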
